A study of Mus musculus with 14 samples.

Results

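The growth factors examined were 7 secreted ligands given by symbol, Igf1, Pdgfa, Pdgfb, Vegfa, Vegfb, Hbegf and Osm, out of 33939 genes in the expression table, and each matched 1 gene. RNA was sequenced from CD11b+ microglia/macrophages isolated with magnetic beads from the contralateral (CL) and ipsilateral (IL) hemispheres of C57BL/6 mice of 8 to 12 weeks at day 3 after traumatic brain injury (TBI) by controlled cortical impact. Ctrl mice were Cx3cr1-CreER+/- and cKO mice were Cx3cr1-CreER+/-;Nhe1flox/flox. Both genotypes received tamoxifen, so both carried an active CreER in the Cx3cr1 locus, and Cre acted in microglia and in any other cell expressing Cx3cr1. A waiting period after tamoxifen let peripheral Cx3cr1+ monocytes be replaced before injury. There were 4 libraries each of Ctrl CL and Ctrl IL and 3 each of cKO CL and cKO IL, from 8 mice, of which 6 (4 Ctrl and 2 cKO) gave both hemispheres. All mice were injured, so CL cells come from the uninjured side of an injured brain. Libraries are named here by group and mouse number, and the replicates were different mice.

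Growth factors are secreted proteins that act on receptors of neighbouring cells. Microglia and macrophages are a source of them in the injured brain. IGF-1 signals through the IGF-1 receptor and is known for supporting oligodendrocytes and neurons. The PDGF chains, PDGF-A and PDGF-B, signal through PDGF receptors alpha and beta on oligodendrocyte progenitors and pericytes. VEGF-A drives vessel growth and permeability through VEGF receptors, and VEGF-B is its paralog with a narrower choice of receptor. HB-EGF is made as a membrane protein that proteases release to bind ErbB receptors. Oncostatin M is a cytokine of the IL-6 family that signals through gp130 with the OSM or LIF receptor.

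The libraries held 12.2 to 41.6 M reads assigned to genes, with a median of 34.2 M, and the fewest were in Ctrl IL 3546. All 8 listed microglial markers were present in each group. Their summed level was 33468 to 38023 CPM (reads scaled to a library total of 1000000) in the CL and 18650 to 22982 CPM in the IL libraries. Summed neutrophil markers lay at 459 to 6106 CPM in CL, with the highest value in Ctrl CL 3541, and overlapped with 145 to 844 CPM in IL. Of these 8 markers 5 were lower in IL in cKO and 0 passed in Ctrl by limma, where 6 had an unadjusted p under 0.05. Summed markers of infiltrating monocytes were 116 to 728 CPM in CL and 793 to 1457 CPM in IL. Of these 8 markers 5 rose in IL in each genotype by limma, with Arg1, Fn1, F10 and Ms4a4c in both. The members differed, since Ly6c2, Chil3 and Plac8 had log2 fold changes of -1.03, -0.68 and 0.02 in Ctrl and did not pass there. T and NK cell markers summed to at most 16.0 CPM and neuronal markers to at most 20.8 CPM. Summed markers were 16.1 to 43.4 CPM for B cells, 80.9 to 194 CPM for oligodendrocytes and 29.0 to 103 CPM for astrocytes. Those of oligodendrocyte progenitors summed to 5.12 to 12.9 CPM in CL and 17.9 to 64.2 CPM in IL, without overlap. Of these 5 markers Cspg4 rose in both genotypes and Olig1 in cKO (limma), and the others did not pass. In Ctrl, Cspg4 had a log2 fold change of 2.59, and Olig1, Olig2, Sox10 and Pdgfra had -0.01, 0.03, -0.26 and 0.29. The sum thus does not show a rise of the list as a whole. In bulk RNA, fewer cells of a type and less RNA per cell cannot be told apart.

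IL was first compared with CL to ask which growth factors differed with injury. In Ctrl cells, 4 of the 7 growth factors passed the test, with Vegfa, Osm and Igf1 higher and Hbegf lower in IL. A gene passed with a limma p adjusted over all genes of at most 0.05 and a change of at least 1.2-fold. By this rule 6.62% of the 16377 genes tested differed. In cKO cells, 3 of 7 passed, namely Vegfa and Osm higher and Hbegf lower, beside 22.3% of 16758 genes. In Ctrl, 3 of the 7 had every IL library above every CL library (6.26% of all genes) and 1 had every IL library below (11.4%). In cKO these were 2 (18.1%) and 1 (24.3%). The median log2 fold change of the 7 was 0.17 in Ctrl and 0.14 in cKO, and that of all genes was -0.04 and 0.02.

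**Figure D1:**
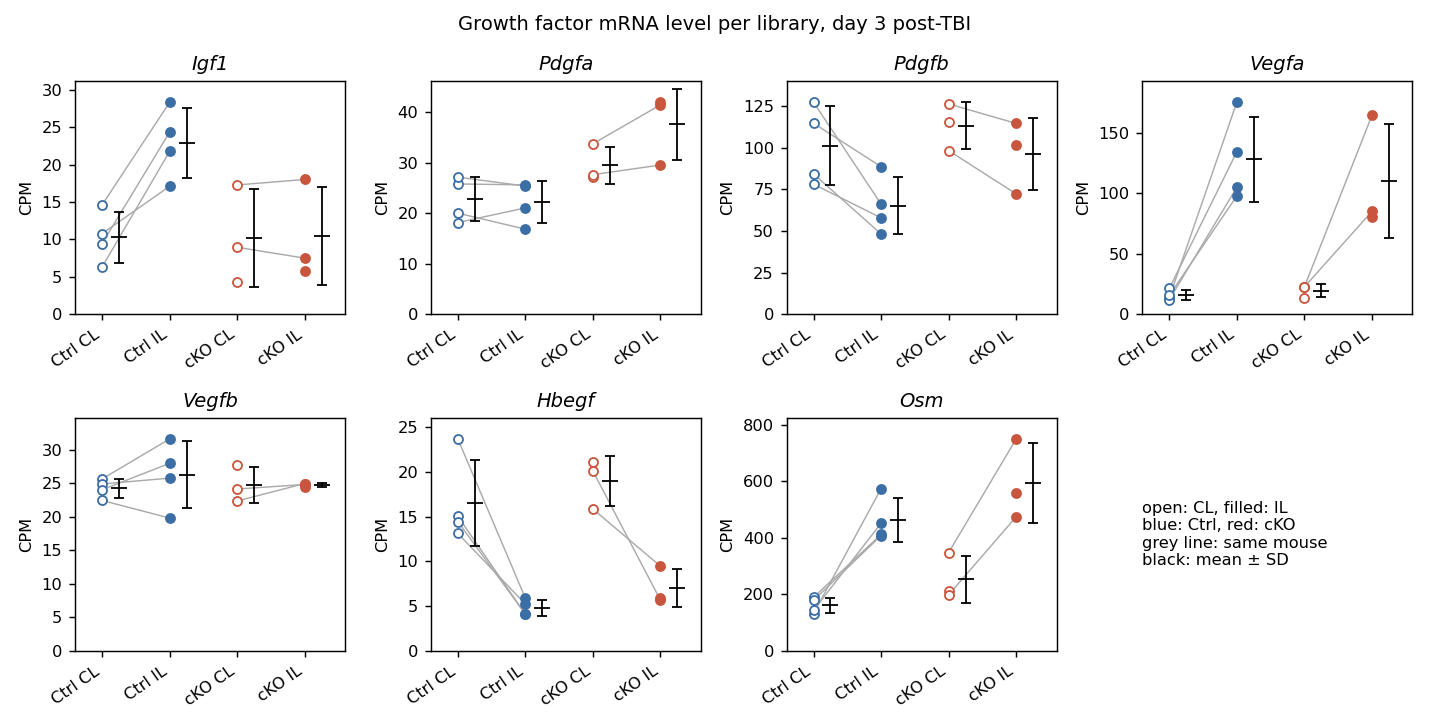
Level of each growth factor in CPM (vertical axes, starting at 0) in the 14 libraries by group. Points are libraries, grey lines join the hemispheres of a mouse and black marks show the group mean ± SD. The Vegfa and Osm points of every IL library lie above those of every CL library, and the Hbegf points lie below.

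Vegfa, on the reverse strand of chromosome 17 (GRCm38, chr17:46016993-46032369), changed most among the 7. In Ctrl CL it lay at 21.4, 13.8, 12.0 and 15.7 CPM in mice 3541, 3545, 3546 and 3551. In Ctrl IL the same mice gave 134, 175, 105 and 97.7 CPM. All 4 mice thus had more Vegfa in the injured hemisphere, by 6.23- to 12.7-fold. In cKO CL, mice 3592, 788 and 791 gave 22.7, 13.8 and 22.6 CPM. In cKO IL, mice 3592, 784 and 791 gave 84.9, 80.5 and 164 CPM. The hemispheres did not overlap in either genotype. The log2 fold change was 3.01 ± 0.29 (SE) in Ctrl (limma adjusted p = 0.000558) and 2.46 ± 0.30 in cKO (limma adjusted p = 0.00248). Vegfb, the paralog, on the reverse strand of chr19:6982473-6987651, stayed within 19.8 to 31.6 CPM in all 14 libraries. Its mean ± SD was 24.2 ± 1.38 CPM in Ctrl CL (n = 4), 26.3 ± 4.94 in Ctrl IL (n = 4), 24.7 ± 2.70 in cKO CL (n = 3) and 24.7 ± 0.246 in cKO IL (n = 3). The groups overlapped, and the 95% confidence interval of its log2 fold change between hemispheres ran from -0.34 to 0.67 in Ctrl and from -0.21 to 0.38 in cKO.

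The paralogs also differed in the sequence before their start sites. The 250 bases before the start are shown for both, since among the 7 these genes had the highest and the lowest ratio of highest to lowest library (14.5 and 1.59). The sequences are from RefSeq on GRCm38.p6 and are written 5′ to 3′ on the gene's strand, with the GC box, GGGCGG on either strand, in capitals. The Vegfa window is chr17:46032378-46032627 (reverse strand), upstream of the first annotated exon, and the Vegfb window is chr19:6987652-6987901 (reverse strand), also upstream of its first exon.
Vegfa: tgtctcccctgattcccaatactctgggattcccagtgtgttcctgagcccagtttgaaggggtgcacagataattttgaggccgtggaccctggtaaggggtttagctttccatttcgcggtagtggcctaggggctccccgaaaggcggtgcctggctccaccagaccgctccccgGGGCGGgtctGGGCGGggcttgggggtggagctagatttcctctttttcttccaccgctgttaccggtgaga
Vegfb: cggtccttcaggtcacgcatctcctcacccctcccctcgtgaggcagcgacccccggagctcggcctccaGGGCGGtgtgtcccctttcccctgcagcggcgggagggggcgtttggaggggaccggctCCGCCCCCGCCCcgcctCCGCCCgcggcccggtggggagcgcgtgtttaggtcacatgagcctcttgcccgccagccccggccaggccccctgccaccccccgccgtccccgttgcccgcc
The Vegfa window held 2 GC boxes and the Vegfb window 4, the middle pair of which adjoin. A GC box was present in 32.7% of 32851 windows of the same length. Neither of the windows shown held the hypoxia response core ACGTG (16.6% of windows), the AP-1 site TGANTCA (6.75%), the cyclic AMP response element TGACGTCA (1.55%) or a TATA box TATAAA (12.4%), searched on both strands. None of these motifs overlapped another in the windows shown. Vegfa has another annotated start, inside the gene, whose window (chr17:46025164-46025413, reverse strand) held the hypoxia response core once and a GC box once. The core in this window falls in bases that code for the VEGF-A protein. RefSeq windows were at hand for 4 of the 7 genes. In the Igf1 window, chr10:87860861-87861110 on the forward strand, the AP-1 letters occurred once and the GC box did not occur. This Igf1 window lies within the first exon of longer annotated transcripts. Pdgfa, with a pair of annotated starts, had 1 and 2 GC boxes.

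The 3′ ends of the transcripts were searched for the AU-rich nonamer TTATTTATT, a letter pattern found in many short-lived mRNAs, on the transcribed strand. Of the 7 growth factors only Vegfa held it, once, at positions 1674 to 1682 of a 3′ untranslated region of 1865 bases (transcript Vegfa-201 of GENCODE M21). The search used a single annotated transcript of each growth factor. Whether the growth factors held the nonamer more often than other genes, or whether it bears on the Vegfa change, was not tested. The Vegfa match is shown in capitals with its flanks.
Vegfa nonamer: gttatcatTTATTTATTggtgctac
Of 14449 genes expressed here with an annotated 3′ untranslated region, 8.25% held the nonamer, and of the 8022 with at least 1000 bases 12.6% did. The shorter pentamer ATTTA occurred 18 times in Igf1 (6308 bases), 9 times in Vegfa, 6 times in Osm (1017 bases), 4 times in Hbegf (1456 bases), 3 times in Pdgfb (1408 bases) and 0 times in Pdgfa (1203 bases) and Vegfb (417 bases). The nonamer contains the pentamer.

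VEGF receptors and co-receptors were measured in the same cells. Neuropilin-2 (Nrp2), a co-receptor, rose in IL, with a log2 fold change of 1.70 ± 0.24 in Ctrl (limma adjusted p = 0.00284) and 1.48 ± 0.13 in cKO (limma adjusted p = 0.0018). In cKO, neuropilin-1 (Nrp1) rose by 0.55 ± 0.14 (limma adjusted p = 0.0263, or 0.0950 with the mouse as a block, a call that 7 of 18 alternatives lost) and Kdr, the main signalling receptor for VEGF-A, by 1.25 ± 0.24 (limma adjusted p = 0.0102). In Ctrl the same values were 0.65 ± 0.19 for Nrp1 (limma adjusted p = 0.0742) and 0.90 ± 0.24 for Kdr (limma adjusted p = 0.0546). Kdr is also an endothelial marker, and the 8 endothelial markers summed to 91.4 to 277 CPM in CL and 104 to 175 CPM in IL. Flt1, which binds both VEGF-A and VEGF-B, lay at 11.7 to 36.3 CPM and did not pass in either genotype. The ligands Vegfc, Vegfd and Pgf had group means of at most 2.79 CPM, and neither Vegfc nor Pgf passed. Vegfd was too low to be tested.

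Osm (chr11:4236420-4241026, forward strand) was the most abundant of the 7. In Ctrl CL it lay at 190, 132, 144 and 179 CPM in mice 3541, 3545, 3546 and 3551. In Ctrl IL these mice gave 412, 574, 452 and 408 CPM. The lowest IL library was thus above the highest CL library. In cKO CL, mice 3592, 788 and 791 gave 199, 212 and 348 CPM. In cKO IL, mice 3592, 784 and 791 gave 474, 557 and 750 CPM. Again the hemispheres did not overlap, and within mice Osm was 2.15- to 4.34-fold higher in IL in 6 of 6. Its log2 fold change was 1.59 ± 0.20 in Ctrl (limma adjusted p = 0.0021) and 1.33 ± 0.26 in cKO (limma adjusted p = 0.00988). Vegfa and Osm, both of which rose in IL, varied together across the 14 libraries (Pearson r = 0.94, n = 14, a description over libraries that fall into 2 hemispheres).

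Among relatives of OSM, the ligand Lif rose from 1.09 ± 0.341 to 4.95 ± 0.837 CPM in Ctrl (n = 4 and 4) and from 1.59 ± 0.592 to 7.71 ± 0.987 CPM in cKO (n = 3 and 3). Its log2 fold changes were 1.57 ± 0.19 (limma adjusted p = 0.00171) and 1.83 ± 0.22 (limma adjusted p = 0.00233). Il6, Clcf1 and Ctf1 did not pass. Il11 and Cntf were too low to be tested. Of the receptor chains, Osmr was scarce, at 0.622 to 4.64 CPM, and did not pass. Il6st, which encodes gp130, the LIF receptor Lifr and the IL-6 receptor Il6ra fell in cKO IL, with log2 fold changes of -0.63 ± 0.12, -0.76 ± 0.12 and -0.76 ± 0.12 (limma adjusted p = 0.0082, 0.00576 and 0.00471). In Ctrl the values were -0.45, -0.87 and -0.09 and did not pass. Of the signalling genes, Stat3 rose in cKO (0.43 ± 0.09, limma adjusted p = 0.0155, or 0.0754 with the mouse as a block, a call that 5 of 18 alternatives lost) and had 0.48 ± 0.17 in Ctrl (limma adjusted p = 0.133). The cKO call of Il6st was lost in the random-effect fit (limma adjusted p = 0.109), and those of Il6st, Lifr and Il6ra in a joint fit of all 14 libraries (limma adjusted p = 0.355, 0.0748 and 0.171). Socs3, the feedback inhibitor induced by STAT3, had group means of 1245 to 1814 CPM and did not pass.

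Hbegf (chr18:36504927-36515805, reverse strand) was the only one of the 7 to pass the test as lower in IL in both genotypes. In Ctrl CL it lay at 15.03, 13.1, 23.7 and 14.4 CPM in mice 3541, 3545, 3546 and 3551. In Ctrl IL these mice gave 4.10, 5.23, 5.89 and 4.12 CPM. Every IL library was below every CL library. In cKO CL, mice 3592, 788 and 791 gave 20.1, 21.1 and 15.8 CPM. In cKO IL, mice 3592, 784 and 791 gave 5.67, 5.88 and 9.46 CPM. There was no overlap in cKO either, and Hbegf was lower in IL in 6 of 6 mice with both hemispheres, by 1.67- to 4.01-fold. The log2 fold change was -1.50 ± 0.21 in Ctrl (limma adjusted p = 0.00327) and -1.27 ± 0.23 in cKO (limma adjusted p = 0.00849). The 12 listed genes of the response to tissue dissociation summed to 30461 to 47976 CPM in CL and 22595 to 28266 CPM in IL. In Ctrl only Nr4a1 of the 12 passed by limma, higher in IL. In cKO 4 passed lower (Fos, Jun, Hspa1a and Hspa1b) and Nr4a1 higher. The part of the dissociation response, of neutrophils or of microglial markers in the Hbegf result was not tested.

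Of the genes whose products handle HB-EGF, 2 rose in IL in both genotypes. Rhbdf2, the iRhom that carries the sheddase ADAM17, had log2 fold changes of 1.24 ± 0.19 in Ctrl (limma adjusted p = 0.00487) and 1.19 ± 0.15 in cKO (limma adjusted p = 0.00251). Adam9, a metalloproteinase that can shed HB-EGF, rose by 1.21 ± 0.13 (limma adjusted p = 0.00103) and 1.09 ± 0.10 (limma adjusted p = 0.0018). Rhbdf1 fell in cKO, by 0.58 ± 0.13 on the log2 scale (limma adjusted p = 0.0169), and had -0.50 ± 0.17 in Ctrl (limma adjusted p = 0.128). Adam10, Adam17 and Cd9 did not pass. Of the other ErbB ligands, Areg (amphiregulin) rose in cKO (1.17 ± 0.17, limma adjusted p = 0.00395) from at most 0.426 CPM in cKO CL, a call lost in the joint fit (limma adjusted p = 0.0855). Tgfa, the most abundant of them, fell in cKO (-0.52 ± 0.11, limma adjusted p = 0.0128). In Ctrl, Areg had 1.43 ± 0.41 (limma adjusted p = 0.0692) and Tgfa -0.39 ± 0.15 (limma adjusted p = 0.159). The receptors Egfr and Erbb2 stayed at or under 2.89 CPM in every library. Erbb3 rose in cKO (0.88 ± 0.20, limma adjusted p = 0.0163) between group means of 0.367 and 1.46 CPM. Of the 5 oligodendrocyte progenitor markers, Cspg4 and Olig1 also rose in cKO by limma and the others did not pass. The part of progenitor RNA in the Erbb3 result was not tested. With the mouse as a block, the cKO calls of Rhbdf1 (limma adjusted p = 0.0738), Tgfa (limma adjusted p = 0.0577) and Erbb3 (limma adjusted p = 0.0571) were lost, and over all alternatives Rhbdf1 lost its call in 7 of 18 and Erbb3 in 5 of 17.

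Igf1 (chr10:87858265-87937042, forward strand) was the growth factor whose hemispheres differed in Ctrl and overlapped in cKO. In Ctrl CL it lay at 6.32, 10.8, 14.6 and 9.46 CPM in mice 3541, 3545, 3546 and 3551. In Ctrl IL these mice gave 21.8, 17.1, 28.3 and 24.3 CPM. No CL library reached the lowest IL library, and each mouse had 1.59- to 3.44-fold more Igf1 in IL. In cKO CL, mice 3592, 788 and 791 gave 17.3, 4.32 and 8.95 CPM. In cKO IL, mice 3592, 784 and 791 gave 18.0, 5.85 and 7.50 CPM. These groups overlapped throughout, and in the 2 cKO mice with both hemispheres the ratio of IL to CL was 1.04 and 0.838. The log2 fold change was 1.18 ± 0.22 in Ctrl (limma adjusted p = 0.0133) and 0.14 ± 0.46 in cKO (limma adjusted p = 0.86, 95% confidence interval -0.92 to 1.195). Without Ctrl IL 3541 the Ctrl value was 1.12 and the call was lost (limma adjusted p = 0.0571). The difference between these responses was tested as an interaction and did not pass (-1.04 ± 0.53, limma adjusted p = 0.9998, 95% confidence interval -2.18 to 0.09).

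Igf1 and the summed level of 6 markers of border-associated macrophages varied together from library to library. The 6 markers, all with a mean of at least 1 CPM in each group, summed to 291 to 670 CPM in Ctrl CL, 401 to 746 in Ctrl IL, 157 to 437 in cKO CL and 232 to 570 in cKO IL. In each of the 4 groups, the library with the least Igf1 had the lowest sum and the library with the most Igf1 had the highest. Across libraries, log2 Igf1 and the log2 sum had a Pearson r of 0.82 (n = 14, a description over libraries that share groups and mice). The markers did not move as one. F13a1, which made up 28.7% to 60.1% of the sum, had the highest r with Igf1 (0.83), followed by Pf4 (0.60), and Mrc1, Lyve1, Cd163 and Cbr2 lay between 0.21 and 0.39. Between hemispheres in Ctrl, where Igf1 rose, Cbr2 fell (-0.90 ± 0.23, limma adjusted p = 0.0488). Lyve1, Mrc1 and Cd163 also had negative log2 fold changes (-1.28, -0.95 and -0.90) and F13a1 and Pf4 positive ones (0.72 and 1.08), none of which passed. Libraries with like sums could still differ in Igf1. Ctrl IL 3541 and cKO CL 3592 had sums of 439 and 437 CPM and Igf1 at 21.8 and 17.3 CPM. Ctrl CL 3551 had a sum of 422 CPM and Igf1 at 9.46 CPM. This relation was noticed after the values were seen, and the part of such macrophages in the Igf1 results was not tested.

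**Figure D2:**
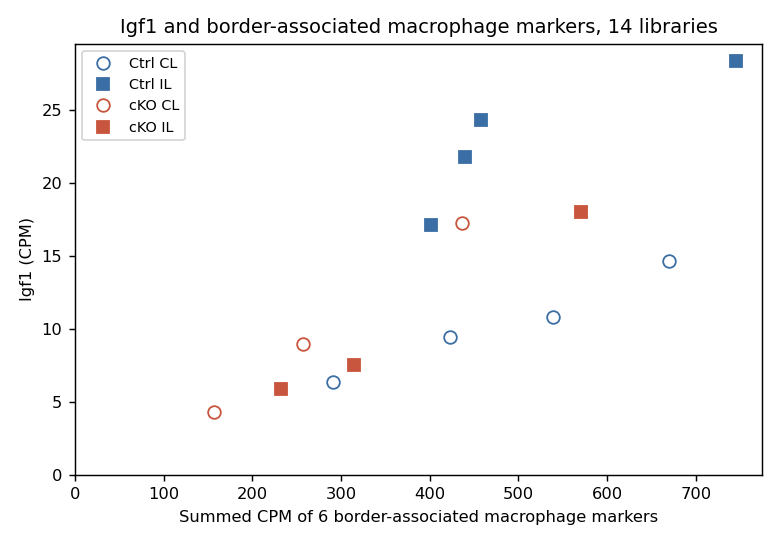
Igf1 in CPM (vertical axis) against the summed CPM of 6 border-associated macrophage markers (horizontal axis) in the 14 libraries. Igf1 ran from 4.32 CPM in the cKO CL library with a sum of 157 CPM to 28.3 CPM in the Ctrl IL library with a sum of 746 CPM.

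Of the IGF receptors, Igf2r, the mannose 6-phosphate receptor that clears IGF-2, rose in both genotypes. It went from 1.58 ± 0.714 to 27.1 ± 19.0 CPM in Ctrl (n = 4 and 4) and from 4.17 ± 2.35 to 16.4 ± 8.67 CPM in cKO (n = 3 and 3). The log2 fold changes were 3.35 ± 0.35 (limma adjusted p = 0.000838) and 1.84 ± 0.43 (limma adjusted p = 0.0186). Igf1r, the IGF-1 receptor itself, lay at 3.13 to 13.03 CPM and did not pass in either genotype. Insr fell in cKO (-0.78 ± 0.16, limma adjusted p = 0.0118, or 0.0991 with the mouse as a block) and had -0.58 ± 0.28 in Ctrl (limma adjusted p = 0.278). The binding proteins Igfbp3 (2.30 ± 0.40, limma adjusted p = 0.00706) and Igfbp7 (1.66 ± 0.26, limma adjusted p = 0.00502) rose in cKO IL, and the Igfbp7 call was lost in a joint fit of all 14 libraries (limma adjusted p = 0.0818). In Ctrl their values were 1.34 ± 0.51 and 0.65 ± 0.54, and none of the 7 genes of that list passed.

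Neither PDGF chain passed the test between hemispheres in either genotype. Pdgfb (chr15:79995874-80014977, reverse strand) lay at 84.3, 78.1, 115 and 127 CPM in Ctrl CL and at 48.2, 57.9, 88.6 and 66.2 CPM in Ctrl IL, in mice 3541, 3545, 3546 and 3551. The groups overlapped, but each of the 4 mice had less Pdgfb in IL, by 1.29- to 1.92-fold. The log2 fold change was -0.56 ± 0.16 and missed the threshold (limma adjusted p = 0.0637). With the mouse as a block it passed (-0.56 ± 0.11, limma adjusted p = 0.0129, beside 20.5% of all genes called with the block), as it did without Ctrl IL 3546 (-0.65, limma adjusted p = 0.0302). In cKO, Pdgfb lay at 98.2, 115 and 126 CPM in CL and at 72.3, 101 and 115 CPM in IL, and the change was -0.17 ± 0.21 (limma adjusted p = 0.591).

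Pdgfa (chr5:138976014-138997370, reverse strand) lay at 25.8, 27.2, 20.04 and 18.2 CPM in Ctrl CL and at 25.6, 25.4, 16.9 and 21.1 CPM in Ctrl IL. These values overlapped (log2 fold change 0.04 ± 0.27, limma adjusted p = 0.968). In cKO it lay at 27.7, 27.1 and 33.8 CPM in CL and at 29.6, 42.0 and 41.5 CPM in IL (mice in the order given above). The change was 0.41 ± 0.18 (limma adjusted p = 0.142) and passed without cKO IL 3592 (0.64, limma adjusted p = 0.0233). An antisense gene, 6330403L08Rik, shares exonic bases with Pdgfa and lay at 2.91 to 6.61 CPM. Whether the counting used strand is not given in the sources used here, so reads of the pair cannot be told apart. The receptor Pdgfra stayed at or under 1.88 CPM in every library and Pdgfrb at 4.67 to 19.0 CPM, and neither passed. Pdgfrb is also a pericyte marker, and the 5 pericyte markers summed to 25.7 to 85.1 CPM.

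**Figure D3:**
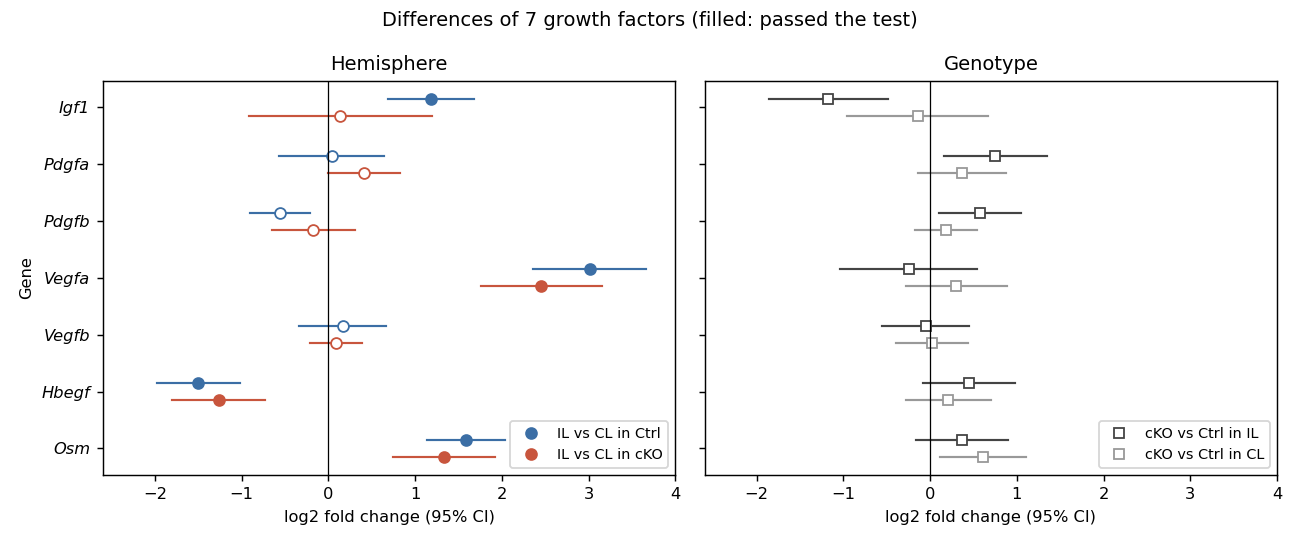
Log2 fold change with its 95% confidence interval (horizontal axis) for each growth factor, between hemispheres (left) and between genotypes (right). Filled symbols passed the test. Between hemispheres 4 symbols are filled for Ctrl and 3 for cKO, and between genotypes none is.

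Over the 13 lists of ligands, receptors and signalling partners, 63 of 77 genes could be tested between hemispheres in each genotype. In Ctrl, 8 were higher and 0 lower in IL by limma, against 3.65% and 2.97% of all genes, and 27 had an unadjusted p under 0.05 (21.2% of all genes). In cKO, 17 were higher and 6 lower, against 12.7% and 9.56% of all genes. The directions over all genes depended on the scaling. The main fits called 598 higher and 486 lower in Ctrl, and 2129 and 1602 in cKO. On the deposited CPM without further scaling these were 625 and 814 in Ctrl, and 1647 and 2146 in cKO. Among other trophic factors, Hgf (hepatocyte growth factor) rose in both genotypes, by 1.26 ± 0.21 in Ctrl (limma adjusted p = 0.00829) and 1.19 ± 0.22 in cKO (limma adjusted p = 0.00828). Angpt2, which destabilises vessels through the receptor TIE2, rose by 1.07 ± 0.18 (limma adjusted p = 0.00808) and 1.03 ± 0.30 (limma adjusted p = 0.0427). Gdf15, a stress-induced member of the TGF-beta family, rose in Ctrl (1.81 ± 0.44, limma adjusted p = 0.0378), a call that 7 of 20 alternatives lost, and had 0.54 ± 0.20 in cKO (limma adjusted p = 0.0859). Psap (prosaposin) and Inhba (an activin chain) rose in cKO, by 0.84 ± 0.21 (limma adjusted p = 0.0228) and 1.92 ± 0.44 (limma adjusted p = 0.0181). In Ctrl, Psap had 1.07 ± 0.28 (limma adjusted p = 0.0532), with every IL library above every CL library, and Inhba 0.75 ± 0.56 (limma adjusted p = 0.51). Alternatives lost the cKO call of Angpt2 in 6 of 18, of Psap in 7 of 18 and of Inhba in 5 of 17, among them the mouse block for Psap (limma adjusted p = 0.108) and the random effect for Inhba (limma adjusted p = 0.0595). The neurotrophin genes Bdnf and Ntf3, and Gdnf, had group means of at most 0.222 CPM and could not be tested.

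**Figure D4:**
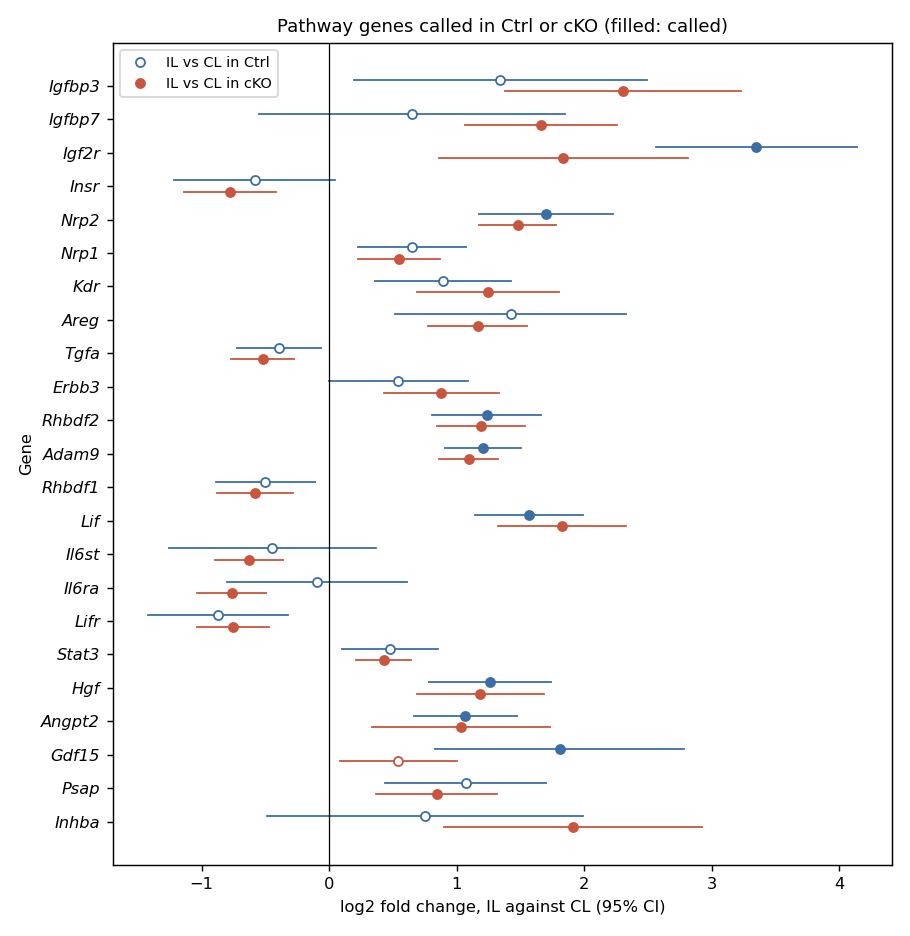
Log2 fold change between IL and CL with its 95% confidence interval (horizontal axis) for pathway genes that passed the test in Ctrl or cKO. Filled points passed, and genes are ordered by list, from IGF to other trophic factors. Igf2r in Ctrl lies farthest to the right, at 3.35.

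The genotypes were then compared within each hemisphere, to ask whether the growth factors differed between Ctrl and cKO mice. None of the 7 passed in IL (limma, 0.656% of 16919 genes passed, and 3 of the 7 had an unadjusted p under 0.05, as 8.94% of genes did) or in CL (0.891% of 16603 genes passed, and 1 of the 7 had an unadjusted p under 0.05, as 9.78% of genes did). In IL, Igf1 had a mean ± SD of 22.9 ± 4.70 CPM in Ctrl (n = 4) and 10.5 ± 6.59 CPM in cKO (n = 3). The log2 difference was -1.17 ± 0.30 (limma adjusted p = 0.194), and cKO IL 3592, at 18.0 CPM, lay within the Ctrl range. Without that library the difference was -1.57 and passed (limma adjusted p = 0.0209). Pdgfa was higher in each cKO IL library than in each Ctrl IL library, at 29.6 to 42.0 against 16.9 to 25.6 CPM. A gene lay wholly above in this way in 4.84% of cases, and the log2 difference of Pdgfa was 0.75 ± 0.26 (limma adjusted p = 0.383). Pdgfb had 0.58 ± 0.21 (limma adjusted p = 0.399), Hbegf 0.45 ± 0.23 and Osm 0.36 ± 0.23. For Vegfa the interval of the difference in IL ran from -1.03 to 0.54, and for Vegfb from -0.55 to 0.45.

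In CL, Osm lay at 199 to 348 CPM in cKO and at 132 to 190 CPM in Ctrl, without overlap, as 3.97% of genes did in this direction. Its log2 difference was 0.61 ± 0.23 (limma adjusted p = 0.366). Of the 12 dissociation genes 0 passed here by limma, and 5 had an unadjusted p under 0.05, beside 9.78% of genes. Among these 5, Nr4a1, Egr1 and Ier2 were higher and Hspa1a and Hspa1b lower in cKO. The part of the dissociation response in the Osm result was not tested. The other 6 growth factors had differences between -0.14 (Igf1) and 0.37 (Pdgfa), and their groups overlapped. Of the other pathway genes, Fgf1, an acidic fibroblast growth factor, was lower in cKO, at 3.33 ± 0.437 CPM in Ctrl CL (n = 4) and 0.482 ± 0.402 in cKO CL (n = 3). The log2 difference was -1.58 ± 0.22 in CL (limma adjusted p = 0.00555) and -1.23 ± 0.21 in IL (limma adjusted p = 0.0465), and 10 of 17 alternatives lost the IL call. The 6 oligodendrocyte markers summed to 126 to 194 CPM in Ctrl CL and 80.9 to 113 CPM in cKO CL, without overlap, and 1 of the 5 tested (Mobp) was lower in cKO by limma, with 4 at an unadjusted p under 0.05. In IL these sums overlapped, at 92.0 to 148 CPM in Ctrl and 95.1 to 139 CPM in cKO, and 0 of the 6 passed by limma or had an unadjusted p under 0.05. The part of oligodendrocyte RNA in the Fgf1 result was not tested. No other pathway gene passed between genotypes. The comparisons of IL and of genotype share libraries, so their values are not independent.

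The interaction of genotype and hemisphere, over all 14 libraries, passed for 0 of the 7 and for 0% of 18476 genes by limma, where 481 genes (2.6%) had an unadjusted p under 0.05, none of them among the 7. With the mouse as a random effect 3 genes passed, none of them among the 7. Its log2 values ranged from -1.04 (Igf1) to 0.39 (Pdgfb). Their intervals were wide, for Vegfa from -1.54 to 0.44 and for Osm from -0.99 to 0.48.

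Per kilobase of exon, which allows genes to be set beside each other, Osm had the highest level in each group, from 71.0 ± 12.1 CPM per kb in Ctrl CL (n = 4) to 261 ± 62.1 in cKO IL (n = 3). In both CL groups the order was Osm, Pdgfb, Vegfb, Pdgfa, Vegfa, Hbegf and Igf1, and the ranges of neighbours were apart except for Vegfa and Hbegf. In IL, Vegfa moved from the fifth to the second place, at 29.9 ± 8.21 CPM per kb in Ctrl (n = 4) and 25.6 ± 10.99 in cKO (n = 3). In Ctrl IL it was followed by Vegfb and Pdgfb, which overlapped, then Pdgfa, Igf1 and Hbegf. In cKO IL, Vegfa overlapped Pdgfb, and Hbegf overlapped Igf1 at the end of the order. Igf1, with the most exonic bases of the 7 (9904), was at 1.03 to 2.31 CPM per kb in the group means.

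**Figure D5:**
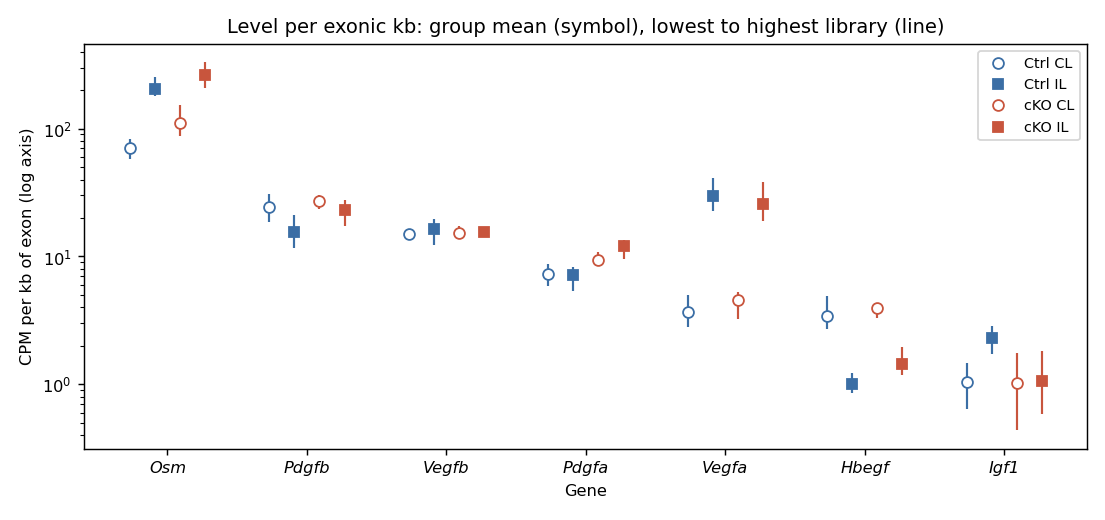
Level of each growth factor in CPM per kb of exon (vertical log axis) by group. Symbols are group means and lines run from the lowest to the highest library. Osm is highest in every group, and Vegfa in IL lies above its CL values without overlap.

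The genes most like each growth factor were sought by Pearson r of log2 values over the 14 libraries, among 10621 genes with a mean of at least 5 CPM. Hif1a (r = 0.98), Tnfsf9 (0.97) and Ap1g2 (0.96) were nearest to Osm. Hif1a encodes the oxygen-regulated subunit of a hypoxia-inducible factor. Tmem189 (0.99), Ptgs2 (0.99), which encodes cyclooxygenase-2, and Slc7a11 (0.98) were nearest to Vegfa. Entpd1 (0.98), which encodes CD39, P3h2 (0.97) and Numb (0.96) were nearest to Hbegf. For Igf1 they were B3gnt8 (0.93), Wwp1 (0.91) and Rab11fip5 (0.90), and for Pdgfb they were Ccnl1 (0.92), Glb1l (0.89) and Edn1 (0.89). For Pdgfa they were Ddx24 (0.94), Hba-a1 (0.93), a haemoglobin gene with a near-identical copy, and Eef2kmt (0.91). For Vegfb they were Tsn, Stx8 and Psmd9 (each 0.92). The libraries share groups and mice, so these values describe likeness and carry no test.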

How the data were processed

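Bulk RNA sequencing used Smart Seq v4 libraries and the NovaSeq platform. Per the labels, the authors aligned reads with STAR to mm10 and used Partek Flow 8.0. The authors deposited CPM for 33939 genes, since each library sums to 1000000, and 79.0% to 83.5% of values below 100 reads were whole multiples of a step within 0.03 reads, too few for a count test, so limma was used. The deposited tables of genotype comparisons hold the authors' p-values and fold changes and were not used. Of the genes, 33802 matched GENCODE M21 (GRCm38, the same assembly as mm10), which gave names, lengths and coordinates.

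CPM were divided by factors from the trimmed mean of M-values (30% of M and 5% of A trimmed, without weights), and log2(CPM + 1) was fitted with limma 3.58.1 in R 4.3.3 with a trend, 2-sided. Fold changes on this scale understate those of low genes. Genes were tested if their CPM equalled at least 10 reads, at the median depth, in enough libraries to fill the smaller group, with 15 reads' worth in total. Benjamini-Hochberg adjustment ran over every gene tested, and 95% confidence intervals and SE are from the fit. Each comparison was fitted on its own libraries, and the interaction on all 14. The fitting code was run on simulated libraries. These were drawn independently, without shared mice, so the run does not show how the fits handle paired hemispheres. Precision is limited by 3 or 4 libraries per group. The same mouse number marks the same animal. Deviations from group means correlated at 0.18 to 0.61 over the 6 pairs of hemispheres of a mouse, and at -0.54 to 0.50 (median -0.22) over the other 19 pairs, which centring on group means shifts below 0. The text names the 7 growth factors, their receptors and each pathway gene that passed, at most 5 per list, except that some genes, counted in their lists, are not reported here. The 7 genes, the 13 pathway lists and the 13 marker lists were chosen with earlier results of these data known. Alternatives were pseudocounts of 0.5 and 0.1, other scalings and filters, other call rules, a joint fit, mouse blocks and leaving out each library. Python 3.11.15 with numpy 2.4.6, pandas 2.3.3 and matplotlib 3.10.9 did the rest.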

Additional observations from a re-analysis of the deposited data

How the results depend on the processing

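The 35 fitted changes of the 7 growth factors (5 comparisons each) were each recomputed under every alternative, and 670 of the 693 recomputed values kept the direction and the call. With the mouse as a block or as a random effect, 5 growth factors passed between hemispheres in Ctrl, Pdgfb being the addition (-0.56 and -0.53, limma adjusted p = 0.0129 and 0.00573). The block changed no other call of the 7. Leaving out each library in turn gave 3 to 5 called between hemispheres in Ctrl, 3 to 4 in cKO, 0 to 1 between genotypes in IL (1 without cKO IL 3592), 0 in CL and 0 for the interaction. Small changes that had not passed turned sign when a library was left out. The ranges that follow are over the main fit and all alternatives. Between hemispheres in Ctrl, Pdgfa ranged from -0.1167 to 0.2158 and was -0.0343 on the deposited CPM without further scaling, and Vegfb ranged from -0.0077 to 0.349. In cKO, Igf1 ranged from -0.283 to 0.5774 and Pdgfb from -0.3528 to 0.0847. Between genotypes, Vegfb ranged from -0.2395 to 0.0808 in IL and from -0.0876 to 0.111 in CL, and Igf1 in CL from -0.5635 to 0.2809. For the interaction, Hbegf ranged from -0.0633 to 0.3897 and Vegfb from -0.2769 to 0.0216. The cause was not tested. The 33 changes of other named genes kept their direction in all 605 recomputed values, and 84 of these lost the call. In cKO the joint fit lost the calls of Areg, Igfbp7, Il6ra, Il6st, Inhba, Insr, Lifr, Nrp1, Psap, Rhbdf1 and Stat3, and calls were lost without CL 788 (Angpt2, Erbb3, Inhba, Nrp1, Psap and Rhbdf1), IL 784 (these and Insr and Stat3), IL 791 (Angpt2, Erbb3, Igf2r, Inhba, Psap, Rhbdf1 and Stat3), IL 3592 (Igf2r, Nrp1, Psap, Rhbdf1 and Tgfa) or, for Angpt2, CL 791 or 3592. Gdf15 lost its Ctrl call without each library except CL 3541 and IL 3546, and Fgf1 its genotype call in IL without Ctrl 3541, 3545 or 3551 or cKO 784 or 791. Over all genes, the 1084 called between hemispheres in Ctrl became 553 with at least 2-fold change, 562 without a filter, 2006 in a joint fit, 3357 with the mouse block and 4269 with the random effect, and the 3731 in cKO became 823 with at least 2-fold change, 1419 in a joint fit and 2266 with the block. Between genotypes, 111 in IL became 66 without a filter and 188 with the random effect, and 148 in CL became 93 without a filter, 86 with the filter in every library, 261 in a joint fit and 293 with the random effect. Leaving out each library gave 484 to 1430 called between hemispheres in Ctrl, 1862 to 3534 in cKO, 46 to 282 between genotypes in IL and 70 to 166 in CL. With 3 or 4 libraries per group, differences between genotypes as wide as the intervals given could not be resolved.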
